A study of Homo sapiens with 16 samples.

Results

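Groups of 4 arrays make up the study's 16 expression profiles of human cell lines, and the 8 arrays of untreated cells are described here across all genes. One side is the anaplastic large cell lymphoma (ALCL) lines FE-PD and JB6 with SU-DHL-1 and Karpas 299, and the other the T-cell lines CCRF-CEM and Jurkat with Molt-3 and Molt-4, with 1 array for each line. The arrays were picked by their labels for cell line and treatment, and no measured value entered that choice. The other 8 arrays hold the same lines after 1 µM 5-aza-2'-deoxycytidine for 6 days and 625 nM trichostatin A for the last 24 hours. They helped to choose the probe set of each gene and entered an alternative fit of all 16 arrays. Otherwise they are only read side by side with the untreated arrays. Nothing in the labels gives a second culture of any line, so a group's spread is the spread between lines, and p values measure no more than that. By common knowledge of these established lines, JB6, SU-DHL-1 and Karpas 299 carry an ALK fusion, FE-PD has none, and all 4 T-cell lines come from T-cell acute lymphoblastic leukaemia.

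ALCL is a lymphoma of activated, often cytotoxic, T cells. It carries the receptor CD30 (gene TNFRSF8) on its surface, and in the ALK-positive form a fusion turns on the kinase ALK, which signals through STAT3 and AP-1 factors. Its cells usually show little of the T-cell receptor complex. T-cell leukaemia lines are arrested at thymocyte stages, where the receptor, its kinases and the factors that set T-cell identity are made. Both groups are thus of T lineage by origin, and the comparison sets a mature, activated tumour against immature ones.

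Values are RMA expression summaries on the log2 scale, so a difference of 1 is a 2-fold difference, and every difference below is ALCL minus T-cell. Each gene is read by 1 probe set, a group of short oligonucleotides near the transcript's 3' end. Per-line values are listed in the order FE-PD, JB6, SU-DHL-1, Karpas 299 and then CCRF-CEM, Jurkat, Molt-3, Molt-4. The value after ± is a standard error from limma with n = 4 and 4 lines, and a gene is called, or said to be higher or lower, at a Benjamini-Hochberg adjusted p below 0.05 over 11963 genes. RMA values have no true zero, and a low value may be background.

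Molt-3 and Molt-4 stood apart from every other pair of lines and, by common knowledge, come from the same patient. Their arrays correlated at r = 0.995 over all genes, and 17 genes differed between them at least 2-fold. In the other 5 pairs of T-cell lines r lay between 0.955 and 0.963, and 583 to 775 genes differed that far. ALCL lines were less alike, with r between 0.913 and 0.948 and 882 to 1216 genes 2-fold apart, and pairs across the groups had r between 0.877 and 0.907. Since the T-cell group may hold 3 independent sources in place of 4, each adjusted p is followed by the one obtained with Molt-3 and Molt-4 averaged to 1 sample, marked "averaged".

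**Figure D1:**
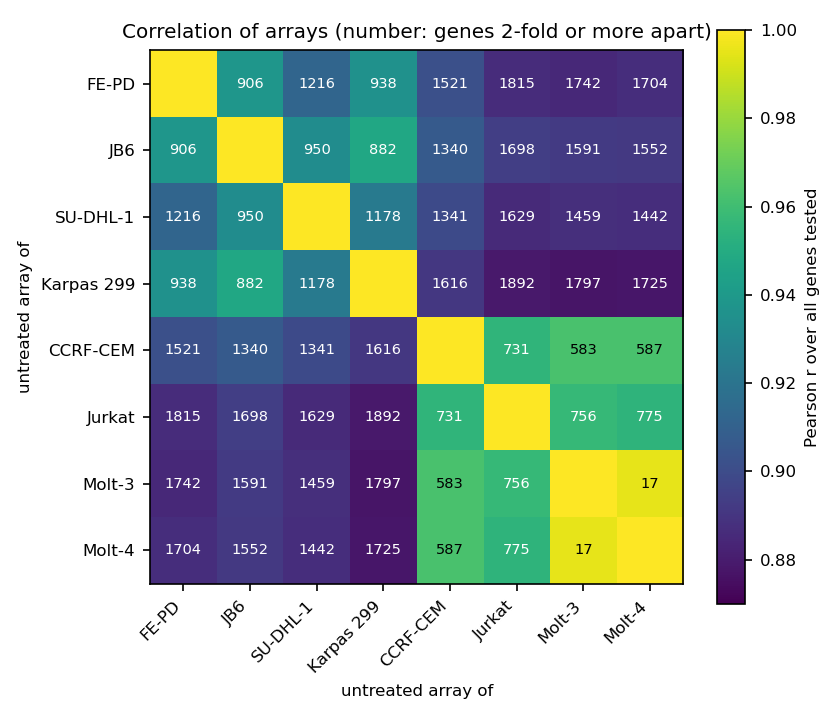
Pearson correlation (colour) between the 8 untreated arrays over all genes tested, with the number of genes at least 2-fold apart printed in each cell. Molt-3 and Molt-4 differ in 17 genes, whereas pairs across the groups differ in 1340 to 1892.

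No technical measure of the arrays passed a test between the groups. The 6 technical measures (the median and SD of all probe sets, the 3'-to-5' difference of ACTB and of GAPDH, the 28S rRNA control and the hybridisation spikes) had exact permutation p values between 0.0857 and 0.914, two-sided, where 4 against 4 allows 0.0286 at the lowest, and adjusted over the 6 no p was below 0.286. The spikes read 7.76 on the JB6 array and 8.93 to 9.27 on the other 7.

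Between the cell types, 1048 of 11963 genes were called (8.76%), of which 380 were higher (3.18%) and 668 lower (5.58%) in ALCL. These shares are the background for every count of list members below. All lists were chosen with earlier results of these data known, so no such count is independent evidence. With the Molt lines averaged, 472 genes were called (3.95%), 189 higher (1.58%) and 283 lower (2.37%). Leaving out a single line gave 455 genes without Molt-3, 476 without Molt-4 and 702 to 1195 without any other line, and the lower genes numbered 431 without Karpas 299. RMA fixes the level of each array by its whole distribution, and centring the arrays on the hybridisation spikes in its place shifted the median over all differences from 0.04 to 0.38 and gave 565 higher and 188 lower genes. The JB6 array with its low spikes enters that centring. Calls that this centring ended, and counts of list members that it moved by over 1.5 times or away from 0, are marked "spike centring". Of the 175 genes named in the text, 22 lost their call with this centring and 34 that were not called gained one. Gained calls of single genes are not marked, so a gene given below as not called may be called with this centring. Large differences ran the other way from the count, since 114 higher and 95 lower genes differed at least 4-fold, and 24 higher and 10 lower ones at least 16-fold. A further 76 genes differed 4-fold or more without being called. The 4 and 4 values did not overlap in 1030 higher and 1165 lower genes, called or not (8.61% and 9.74% of genes, 18.3% together), and a gap of at least 1 log2 unit was left in 95 and 90 of them.

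The labels were read against defining genes first. TNFRSF8, the CD30 receptor that defines ALCL, read 12.05, 11, 11.05 and 11.80 in ALCL and 8.26, 8.15, 7.34 and 7.52 in the T-cell lines. All 4 ALCL lines lay above all 4 T-cell lines, by 3.66 ± 0.31 (adjusted p = 0.000507, 0.00308 averaged). ALK, the kinase of the fusion, read 6.39, 10.66, 11.10 and 10 in ALCL and 6.40, 6.09, 6.26 and 6.32 in the T-cell lines. JB6, SU-DHL-1 and Karpas 299 were high and FE-PD was at the level of the T-cell lines, so the group difference of 3.27 ± 0.93 was not called (adjusted p = 0.0673, 0.15 averaged). Of the T-cell markers, CD3E, CD3G, CD7 and LCK separated the groups completely, as described further on. CD2, an adhesion receptor of T cells, read 7.07, 7.32, 6.66 and 6.60 in ALCL and 6.61, 7.50, 9.57 and 9.96 in the T-cell lines, low in CCRF-CEM and Jurkat as well as in ALCL (difference -1.50 ± 0.71, adjusted p = 0.235, 0.451 averaged). CD5, another surface receptor of T cells, read 8.19, 7.95, 9.05 and 8.41 in ALCL and 8.33, 8.13, 8.83 and 8.76 in the T-cell lines, so the groups overlapped (adjusted p = 0.817, 0.98 averaged).

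The 12 widest gaps on the ALCL side belonged to CLU, SERPINA1, GZMB, PRF1, IL1R2, GAS1, IRF4, IL1R1, IL26, IL2RA, IL2RB and CYTIP. CLU, the secreted chaperone clusterin, read 12.17, 12.97, 12 and 13.08 in ALCL and 6.00, 5.71, 5.81 and 5.71 in the T-cell lines. Its lowest ALCL value lay 6.00 log2 units above its highest T-cell value, and the difference of 6.75 ± 0.25 (adjusted p = 1.33e-05, 0.000194 averaged) corresponds to 107.0-fold. SERPINA1, the inhibitor alpha-1 antitrypsin, read 12.14, 11.46, 13.20 and 11.91 in ALCL and 6.01, 5.92, 5.86 and 5.88 in the T-cell lines and differed by 6.26 ± 0.33 (adjusted p = 3.51e-05, 0.000394 averaged). The 4 T-cell lines were nearly identical in it. GAS1, a membrane protein linked to growth arrest, read 10.39, 11.62, 11.90 and 11.97 in ALCL and 6.01, 6.15, 4.88 and 5.33 in the T-cell lines, a difference of 5.88 ± 0.41 (adjusted p = 0.000179, 0.00117 averaged). IRF4, a factor of activated lymphocytes, read 12.14, 11.31, 10.79 and 11.59 in ALCL and 6.55, 6.64, 6.44 and 6.77 in the T-cell lines and differed by 4.86 ± 0.26 (adjusted p = 3.51e-05, 0.000394 averaged). CYTIP, a scaffold of lymphocyte adhesion, followed with 10.05, 9.38, 10.73 and 9.31 in ALCL and 5.75, 4.87, 4.90 and 4.75 in the T-cell lines (4.80 ± 0.36, adjusted p = 0.000241, 0.00189 averaged).

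On the T-cell side, the widest gap was that of TSPAN7, a tetraspanin membrane protein, at 6.29, 6.21, 6.21 and 6.38 in ALCL and 11.78, 11.48, 11.16 and 11.35 in the T-cell lines. The ALCL lines were alike and far below, with a difference of -5.17 ± 0.14 (adjusted p = 2.77e-06, 3.23e-05 averaged). IGFBP2, which binds insulin-like growth factors, read 5.73, 6.37, 5.42 and 6.00 in ALCL and 10.76, 11.22, 10.73 and 10.96 in the T-cell lines and differed by -5.04 ± 0.21 (adjusted p = 1.65e-05, 0.000194 averaged). FAT1, a giant cadherin, read 6.02, 5.56, 5.65 and 5.80 in ALCL and 9.45, 9.79, 10.14 and 10.10 in the T-cell lines, a difference of -4.11 ± 0.18 (adjusted p = 1.65e-05, 0.000194 averaged). Each of these 3 left a gap of more than 3 log2 units. GNAQ, a G-protein subunit, read 8.11, 8.03, 7.49 and 6.31 in ALCL and 10.91, 11.10, 10.97 and 11.12 in the T-cell lines, lowest in Karpas 299, and differed by -3.54 ± 0.37 (adjusted p = 0.0013, 0.0073 averaged). AIF1, a calcium-binding protein better known from macrophages, read 8.02, 7.39, 7.74 and 8.01 in ALCL and 10.82, 11.22, 11.96 and 11.72 in the T-cell lines, so here it was high in the lymphoid leukaemia lines (-3.64 ± 0.26, adjusted p = 0.000211, 0.00117 averaged). NRN1, a membrane-anchored protein described in neurons, was also lower (-3.64 ± 0.28, adjusted p = 0.000275, 0.00185 averaged), as was BTBD3 (-3.45 ± 0.22, adjusted p = 0.000113, 0.000394 averaged).

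**Figure D2:**
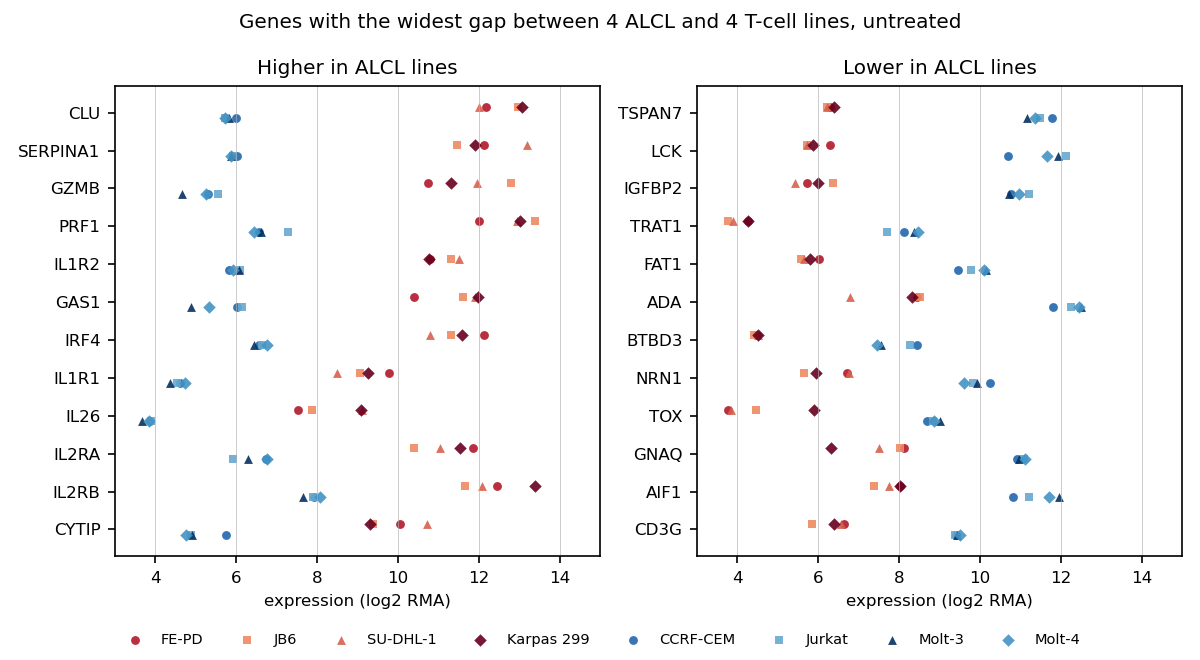
Expression (log2 RMA) of the 12 genes on each side with the widest gap between the groups among called genes, 1 point for each line. ALCL lines are in red shades above, T-cell lines in blue shades below each gene's position, and in no gene shown do the 4 and 4 values overlap. CLU has the widest gap, from 6.00 in CCRF-CEM to 12 in SU-DHL-1.

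The T-cell receptor reads antigen through its variable chains and signals through the CD3 chains. The list of its chains also holds the adaptor TRAT1. In this list, 5 of 7 measured members, TRAT1 among them, were lower in ALCL (4 averaged, 4 to 5 with any 1 line left out) and 0 were higher (0 at an unadjusted p below 0.05), with a median difference of -3.07. CD3E, a signalling chain, read 7.96, 7.64, 7.69 and 7.20 in ALCL and 10.57, 10.91, 10.77 and 10.82 in the T-cell lines, a difference of -3.15 ± 0.17 (adjusted p = 3.51e-05, 0.000418 averaged). CD3G, its neighbour on the chromosome and in the complex, read 6.63, 5.85, 6.57 and 6.38 in ALCL and 9.40, 9.38, 9.42 and 9.51 in the T-cell lines, a difference of -3.07 ± 0.17 (adjusted p = 4.46e-05, 0.000507 averaged). In both, the 4 T-cell lines were close together and the ALCL lines lay clearly lower. CD3D kept a sizeable signal in ALCL, with 10.49, 8.15, 10.75 and 10.03 in ALCL and 12.82, 12.70, 12.81 and 12.83 in the T-cell lines. JB6 was lowest and the group difference was -2.94 ± 0.51 (adjusted p = 0.0124, 0.0437 averaged). TRBC1, a constant region of the beta chain, read 9.03, 9.76, 5.73 and 10.22 in ALCL and 12.41, 13.15, 13.61 and 13.54 in the T-cell lines. In FE-PD, JB6 and Karpas 299 it was intermediate and in SU-DHL-1 far lower, and the difference was -4.49 ± 0.91 (adjusted p = 0.0222, 0.0704 averaged). TRAT1, an adaptor that stabilises the complex, was low in all 4 ALCL lines, with 4.26, 3.76, 3.90 and 4.27 in ALCL and 8.13, 7.71, 8.38 and 8.47 in the T-cell lines (-4.13 ± 0.20, adjusted p = 2.79e-05, 0.000279 averaged). CD247, the zeta chain, was not called and overlapped between groups, with 10.80, 9.34, 7.45 and 9.31 in ALCL and 9.92, 10.72, 10.81 and 10.73 in the T-cell lines. The call of TRBC1 was lost without Jurkat (adjusted p = 0.0504), Molt-3 (adjusted p = 0.0711) or Molt-4 (adjusted p = 0.0694).

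Below the receptor, kinases and adaptors pass the signal on. Among them 11 of 19 measured members were lower in ALCL (8 averaged, 7 to 10 with any 1 line left out, 7 without Molt-4) and 0 were higher (0 at an unadjusted p below 0.05), with a median of -1.18. LCK, the kinase that starts the cascade, read 6.29, 5.71, 5.73 and 5.88 in ALCL and 10.70, 12.12, 11.93 and 11.66 in the T-cell lines. No ALCL line came within 4 log2 units of any T-cell line, and the difference of -5.70 ± 0.30 (adjusted p = 3.51e-05, 0.000394 averaged) is 52.1-fold. RASGRP1, which activates RAS after receptor engagement, read 5.77, 4.82, 4.76 and 4.68 in ALCL and 7.69, 8.23, 7.64 and 7.79 in the T-cell lines (-2.83 ± 0.26, adjusted p = 0.000732, 0.00429 averaged). SH2D1A, the adaptor SAP, read 7.11, 6.35, 6.21 and 6.87 in ALCL and 9.16, 10.01, 9.56 and 8.97 in the T-cell lines (-2.79 ± 0.28, adjusted p = 0.00103, 0.00431 averaged). UBASH3A, a negative regulator of the same signal, was lower as well, at 5.50, 5.29, 4.94 and 5.12 in ALCL and 7.41, 7.43, 7.81 and 7.60 in the T-cell lines (-2.35 ± 0.15, adjusted p = 0.000111, 0.000857 averaged). PRKCQ, protein kinase C theta, differed by -1.55 ± 0.21 (adjusted p = 0.00399, 0.0186 averaged), and NFATC1, a factor at the end of the calcium branch, by -1.18 ± 0.18 (adjusted p = 0.00767, 0.0195 averaged). ZAP70, the kinase that binds the phosphorylated zeta chain, read 7.49, 7.69, 5.17 and 7.60 in ALCL and 8.47, 8.23, 9.30 and 9.11 in the T-cell lines and was not called (-1.79 ± 0.57, adjusted p = 0.0936, 0.219 averaged). Its SU-DHL-1 value lay more than 2 log2 units below the other 7 lines. With spike centring, PRKCQ and NFATC1 were no longer called (adjusted p between 0.0849 and 0.432). With the mean of its probe sets, NFATC1 was no longer called (adjusted p = 0.119).

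Genes of immature thymocytes were the other large group on the T-cell side. Of these 10 of 17 measured members were lower in ALCL (7 averaged, 6 to 10 with any 1 line left out, 6 without Molt-4) and 0 were higher (0 at an unadjusted p below 0.05), with a median of -2.37. ADA, the adenosine deaminase that thymocytes need, read 8.43, 8.51, 6.79 and 8.32 in ALCL and 11.80, 12.26, 12.51 and 12.45 in the T-cell lines, lowest in SU-DHL-1, and differed by -4.24 ± 0.39 (adjusted p = 0.000715, 0.00456 averaged). TOX, a factor of thymocyte selection, read 3.76, 4.46, 3.83 and 5.89 in ALCL and 8.70, 8.84, 9.01 and 8.87 in the T-cell lines (-4.37 ± 0.43, adjusted p = 0.000991, 0.00604 averaged). RAG1, the recombinase that rearranges receptor genes, read 4.78, 4.89, 4.71 and 4.62 in ALCL and 8.02, 6.34, 8.77 and 7.80 in the T-cell lines and differed by -2.98 ± 0.45 (adjusted p = 0.00675, 0.0195 averaged). Among T-cell lines Jurkat was lowest. STMN1, a microtubule regulator of dividing cells, differed by -1.60 ± 0.15 (adjusted p = 0.00086, 0.00514 averaged). Lipid-presenting CD1 proteins of cortical thymocytes were lower too, and CD1A read 7.03, 6.61, 6.51 and 7.39 in ALCL and 8.67, 9.11, 9.37 and 8.78 in the T-cell lines (-2.10 ± 0.23, adjusted p = 0.00192, 0.00644 averaged). CD1B (adjusted p = 0.0357, 0.102 averaged), CD1C (adjusted p = 0.0173, 0.0546 averaged) and CD1E (adjusted p = 0.0252, 0.0625 averaged) lost their calls with the Molt lines averaged. The call of CD1B was kept only without CCRF-CEM among the fits with 1 line left out. That of CD1C was lost without Molt-3 (adjusted p = 0.0609) or Molt-4 (adjusted p = 0.0507). That of CD1E was lost without FE-PD, JB6, Karpas 299 or Molt-4 (adjusted p between 0.0506 and 0.0782). DNTT, the polymerase that adds bases at receptor joints, read 5.77, 5.88, 5.67 and 5.60 in ALCL and 6.50, 6.10, 11.53 and 11.38 in the T-cell lines. It was high in the 2 Molt arrays and low in the other 6, and it was not called (adjusted p = 0.175, 0.354 averaged). The thymus-homing receptor CCR9 read 5.81, 5.66, 5.79 and 5.63 in ALCL and 5.67, 7.30, 9.57 and 9.83 in the T-cell lines, highest in the Molt arrays with Jurkat between, and was not called either (adjusted p = 0.129, 0.285 averaged). With spike centring, STMN1 was no longer called (adjusted p = 0.0662).

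Mature surface receptors separated the groups less. In the surface marker list, 3 of 24 measured members were lower in ALCL (2 averaged, 2 to 4 with any 1 line left out) and 0 were higher (1 at an unadjusted p below 0.05, 2 with spike centring), with a median of -0.27 (0.07 with spike centring). CD7, an early and lasting T-cell marker, read 6.57, 6.67, 6.34 and 6.44 in ALCL and 9.76, 9.82, 8.53 and 9.55 in the T-cell lines, a difference of -2.91 ± 0.28 (adjusted p = 0.000818, 0.000734 averaged). CD6 differed by -0.81 ± 0.12 (adjusted p = 0.00684, 0.0292 averaged). CD4, the helper co-receptor, read 9.67, 7.66, 7.19 and 11.13 in ALCL and 8.71, 7.20, 7.68 and 7.30 in the T-cell lines, highest in Karpas 299 and FE-PD, and was not called (adjusted p = 0.414, 0.564 averaged). With spike centring, CD6 was no longer called (adjusted p = 0.664). With its probe set of highest spread, CD6 was no longer called (adjusted p = 0.0523).

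Among factors that set T-cell identity, 7 of 22 measured members were lower in ALCL (5 averaged, 5 to 7 with any 1 line left out) and 0 were higher (3 at an unadjusted p below 0.05, 2 with spike centring), with a median of -1.20. GATA3, needed for T-cell commitment, read 7.38, 6.54, 8.18 and 7.27 in ALCL and 10.55, 11.14, 10.01 and 9.72 in the T-cell lines and differed by -3.01 ± 0.40 (adjusted p = 0.00408, 0.0115 averaged). BCL11B, which shuts off other fates in early T cells, read 6.06, 5.85, 5.05 and 4.87 in ALCL and 8.53, 9.80, 9.55 and 9.80 in the T-cell lines, a difference of -3.96 ± 0.37 (adjusted p = 0.00081, 0.00467 averaged). Both left a clear gap between the groups. NFATC3 differed by -1.35 ± 0.20 (adjusted p = 0.00613, 0.0114 averaged). LEF1, a Wnt-responsive factor of T progenitors, read 8.61, 5.77, 10.61 and 5.75 in ALCL and 11.34, 11.66, 11.73 and 11.47 in the T-cell lines. SU-DHL-1 and, less so, FE-PD read higher for LEF1 than JB6 and Karpas 299, and the gene was not called (-3.87 ± 1.02, adjusted p = 0.055, 0.131 averaged). TCF7L2, a relative of LEF1, was lower throughout, with 5.53, 6.06, 5.67 and 5.52 in ALCL and 8.35, 9.43, 8.68 and 8.72 in the T-cell lines (-3.10 ± 0.24, adjusted p = 0.000275, 0.00207 averaged). With spike centring, NFATC3 was no longer called (adjusted p = 0.227).

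Oncogenes of T-cell leukaemia gave 0 higher (1 at an unadjusted p below 0.05) and 3 lower (1 averaged, 1 to 3 with any 1 line left out, 1 without Karpas 299 or Molt-4, 1 with spike centring) of 14 measured members, with a median of -0.27 (0.07 with spike centring). LMO2, a partner of TAL1, read 4.63, 4.36, 5.08 and 4.82 in ALCL and 6.80, 6.04, 6.67 and 6.66 in the T-cell lines and differed by -1.81 ± 0.21 (adjusted p = 0.00205, 0.0114 averaged). ERG read 5.10, 5.01, 4.67 and 4.80 in ALCL and 6.52, 4.95, 8.38 and 8.85 in the T-cell lines, high in the 2 Molt arrays, and was not called (adjusted p = 0.112, 0.25 averaged). The Notch list had 1 higher (1 averaged, 1 with any 1 line left out) and 2 lower (1 averaged, 1 to 2 with any 1 line left out, 1 without JB6, Karpas 299, CCRF-CEM, Molt-3 or Molt-4, 0 with spike centring) of 15 measured members. NOTCH1, the receptor often mutated in T-cell leukaemia, read 7.12, 6.90, 7.92 and 7.45 in ALCL and 8.15, 8.04, 9.0 and 9.06 in the T-cell lines, which left a narrow gap and a difference of -1.21 ± 0.31 (adjusted p = 0.0499, 0.132 averaged). The call of NOTCH1 was lost without any 1 of FE-PD, JB6, Karpas 299, CCRF-CEM, Molt-3 or Molt-4 (adjusted p between 0.055 and 0.136). With spike centring, NOTCH1 was no longer called (adjusted p = 0.384). With its probe set of highest spread, NOTCH1 was no longer called (adjusted p = 0.0507). With quantile normalization, NOTCH1 was no longer called (adjusted p = 0.064).

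A list of genes tied to ALCL was put together with knowledge of this field. As for every list here, earlier results on these arrays were known, so the direction of the ALCL list is no independent evidence. In it 24 of 39 measured members were higher in ALCL (17 averaged, 17 to 25 with any 1 line left out) and 0 were lower (0 at an unadjusted p below 0.05), with a median of 2.19. LGALS1, the galectin that ALCL cells secrete, read 12.20, 12.56, 11.30 and 12.29 in ALCL and 8.19, 6.76, 6.04 and 5.75 in the T-cell lines. CCRF-CEM was the highest T-cell line and still far below every ALCL line (5.40 ± 0.53, adjusted p = 0.00091, 0.00462 averaged). TIMP1, an inhibitor of matrix proteases, read 10.81, 11.63, 13.67 and 13.66 in ALCL and 8.24, 6.73, 6.82 and 6.81 in the T-cell lines (5.29 ± 0.70, adjusted p = 0.00399, 0.0189 averaged). IL26, a cytokine of activated T cells, read 7.52, 7.87, 9.10 and 9.09 in ALCL and 3.86, 3.88, 3.67 and 3.85 in the T-cell lines and differed by 4.58 ± 0.36 (adjusted p = 0.000335, 0.00259 averaged). PERP, a membrane protein of cell junctions and a p53 target, read 9.81, 8.62, 9.63 and 9.46 in ALCL and 4.93, 5.22, 4.99 and 5.13 in the T-cell lines (4.31 ± 0.24, adjusted p = 4.79e-05, 0.000512 averaged). Each of these 4 genes separated the groups without overlap.

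ID proteins bind E proteins, the E2A family of helix-loop-helix factors that drive early T-cell genes, and keep them off DNA. ID2 read 6.79, 10.21, 11.72 and 11.26 in ALCL and 5.18, 6.34, 6.29 and 5.38 in the T-cell lines. JB6, SU-DHL-1 and Karpas 299 were high and FE-PD slightly above the highest T-cell line, and the difference was 4.20 ± 0.99 (adjusted p = 0.0384, 0.0967 averaged). Of the E proteins, TCF3 read 8.16, 10.16, 9.51 and 9.16 in ALCL and 9.29, 10.09, 9.89 and 9.89 in the T-cell lines and was not called (-0.54 ± 0.40, adjusted p = 0.426, 0.576 averaged). TCF12 read 4.94, 8.45, 8.90 and 8.73 in ALCL and 9.38, 10.31, 9.90 and 9.84 in the T-cell lines. FE-PD, the line with the lowest ID2 of the ALCL lines, was also the line with the lowest TCF12 of all 8, and TCF12 was not called (adjusted p = 0.163, 0.292 averaged). The call of ID2 was lost without any 1 of JB6, SU-DHL-1, Karpas 299, CCRF-CEM, Jurkat, Molt-3 or Molt-4 (adjusted p between 0.0622 and 0.104). With the mean of its probe sets, ID2 was no longer called (adjusted p = 0.0518).

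AP-1 factors are dimers of JUN, FOS, ATF and BATF proteins that bind DNA after activating signals. In this family 6 of 16 measured members were higher in ALCL (5 averaged, 5 to 7 with any 1 line left out) and 0 were lower (1 at an unadjusted p below 0.05), with a median of 0.33. JUNB, which ALK signalling and CD30 are known to raise, read 11.72, 11.05, 11.12 and 11.65 in ALCL and 8.01, 7.78, 7.91 and 7.89 in the T-cell lines. Spread was small on both sides and the difference was 3.49 ± 0.17 (adjusted p = 3.04e-05, 0.000394 averaged). BATF3, a dimer partner of JUN proteins, read 11.03, 10.87, 11.30 and 11.36 in ALCL and 6.16, 8.83, 7.48 and 8.09 in the T-cell lines (3.50 ± 0.50, adjusted p = 0.00559, 0.0195 averaged). JUN itself read 8.59, 9.55, 8.18 and 9.43 in ALCL and 7.52, 6.94, 6.13 and 6.09 in the T-cell lines, with a narrow gap between CCRF-CEM and SU-DHL-1 and a difference of 2.27 ± 0.42 (adjusted p = 0.0158, 0.0522 averaged). BATF differed by 1.36 ± 0.20 (adjusted p = 0.00646, 0.0259 averaged), FOSL2 by 1.32 ± 0.17 (adjusted p = 0.00376, 0.0186 averaged) and ATF3 by 1.41 ± 0.24 (adjusted p = 0.0112, 0.0389 averaged). The immediate early genes, which respond to the same signals, had 5 higher (3 averaged, 3 to 6 with any 1 line left out, 3 without CCRF-CEM, Molt-3 or Molt-4) and 1 lower (0 averaged, 0 to 1 with any 1 line left out, 0 without JB6, Karpas 299, CCRF-CEM, Jurkat or Molt-4, 0 with spike centring) of 23 measured members. BHLHE40, a repressor induced by activation, read 11.26, 9.79, 11.58 and 11.55 in ALCL and 7.67, 6.99, 6.00 and 6.00 in the T-cell lines (4.38 ± 0.51, adjusted p = 0.00213, 0.0105 averaged), and KLF10 differed by 1.87 ± 0.23 (adjusted p = 0.00288, 0.0128 averaged). The call of JUN was lost without Molt-3 (adjusted p = 0.0531) or Molt-4 (adjusted p = 0.0514).

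Promoter sequence was set beside these values because the AP-1 genes were among those called. RefSeq promoters (GRCh38.p14, 250 bases before to 50 after the start) were matched for 9563 of the genes tested, 315 of the higher and 558 of the lower ones. The AP-1 letters TGANTCA, searched on both strands, were found in 10.5% of promoters of higher genes, 4.66% of lower genes and 5.43% of all genes. An NF-kB motif was in 36.5%, 31.4% and 30.0%, the ETS letters CCGGAAG in 12.4%, 19.2% and 15.2%, and the RUNX letters TGTGGT in 10.2%, 9.68% and 10.3%. Among genes at least 4-fold apart, the RUNX letters were in 17.4% of 92 higher and 16% of 75 lower genes. The other 6 of the 10 motifs searched (the E-box CANNTG, the GATA letters AGATAA, the STAT letters TTCNNNGAA, the cyclic AMP letters TGACGTC, the TATA box TATAAA and the hypoxia letters ACGTG) were within 3.83 percentage points of all genes in both sets. Of these, the TATA box was in 5.71%, 4.66% and 8.30%, and the GATA letters in 4.44%, 4.84% and 6.79%. Promoters poor in CpG (observed over expected below 0.4) made up 13.3%, 10.8% and 19.7%. A match of letters is no evidence that a factor binds there.

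Promoters of 4 strongly higher genes that hold the AP-1 letters are shown, with the letters in capitals, 5′ to 3′ in the direction of the gene, and LCK is shown as a gene lower in ALCL. PERP and CAPN2 were added after their values were seen.
GZMB, chr14:24634141-24634440, minus strand: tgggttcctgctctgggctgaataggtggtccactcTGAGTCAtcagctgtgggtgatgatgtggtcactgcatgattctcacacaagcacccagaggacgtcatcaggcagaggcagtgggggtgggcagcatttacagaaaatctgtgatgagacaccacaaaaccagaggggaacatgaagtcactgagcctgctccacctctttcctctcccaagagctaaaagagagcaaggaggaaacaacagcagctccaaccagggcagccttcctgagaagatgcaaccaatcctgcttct
TNFRSF8, chr1:12063053-12063352, plus strand: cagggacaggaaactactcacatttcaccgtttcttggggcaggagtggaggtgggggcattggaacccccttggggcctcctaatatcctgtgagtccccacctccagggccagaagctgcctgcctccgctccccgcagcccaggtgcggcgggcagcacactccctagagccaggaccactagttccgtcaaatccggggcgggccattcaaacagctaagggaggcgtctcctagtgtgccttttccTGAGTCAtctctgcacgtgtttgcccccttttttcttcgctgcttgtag
PERP, chr6:138107370-138107669, minus strand: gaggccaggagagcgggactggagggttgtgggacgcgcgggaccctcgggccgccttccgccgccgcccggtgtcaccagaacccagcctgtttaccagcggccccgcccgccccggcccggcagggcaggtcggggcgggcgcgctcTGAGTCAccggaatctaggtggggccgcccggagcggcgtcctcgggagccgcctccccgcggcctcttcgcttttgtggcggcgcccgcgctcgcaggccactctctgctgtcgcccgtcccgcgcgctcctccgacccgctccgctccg
CAPN2, chr1:223701347-223701646, plus strand: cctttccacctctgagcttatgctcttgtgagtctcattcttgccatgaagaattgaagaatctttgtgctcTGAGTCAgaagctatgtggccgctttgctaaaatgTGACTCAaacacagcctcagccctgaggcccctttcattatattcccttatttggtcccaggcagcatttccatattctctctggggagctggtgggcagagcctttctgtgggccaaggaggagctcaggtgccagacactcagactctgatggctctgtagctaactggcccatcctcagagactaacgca
LCK, chr1:32251015-32251314, plus strand: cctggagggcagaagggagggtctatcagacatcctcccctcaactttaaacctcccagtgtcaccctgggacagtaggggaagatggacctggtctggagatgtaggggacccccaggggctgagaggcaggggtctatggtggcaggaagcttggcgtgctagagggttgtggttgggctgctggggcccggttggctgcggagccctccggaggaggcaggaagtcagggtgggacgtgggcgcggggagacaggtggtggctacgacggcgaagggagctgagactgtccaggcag
GZMB, TNFRSF8 and PERP each held the letters at 1 place and CAPN2 at 2, and LCK at none. Only higher genes that hold the letters are shown, and 5.43% of all promoters hold them. The contrast with LCK is therefore no evidence of a link between the letters and the direction. In TNFRSF8 the match starts at the annotated start of transcription. CAPN2, a calcium-dependent protease, read 9.57, 9.41, 8.84 and 9.43 in ALCL and 5.60, 5.39, 5.60 and 5.78 in the T-cell lines, a difference of 3.72 ± 0.17 (adjusted p = 2.31e-05, 0.00027 averaged).

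Killer cells store granzymes, perforin and their carriers in granules. In this list 5 of 16 measured members were higher in ALCL (4 averaged, 4 to 6 with any 1 line left out, 8 with spike centring) and 0 were lower (0 at an unadjusted p below 0.05), with a median of 0.90. GZMB, the protease that starts apoptosis in target cells, read 10.74, 12.80, 11.95 and 11.32 in ALCL and 5.31, 5.55, 4.66 and 5.24 in the T-cell lines, a difference of 6.52 ± 0.42 (adjusted p = 0.000111, 0.000857 averaged) or 91.5-fold. PRF1, the pore former, read 12.01, 13.40, 12.95 and 13.01 in ALCL and 6.56, 7.28, 6.61 and 6.45 in the T-cell lines (6.12 ± 0.31, adjusted p = 3.04e-05, 0.000394 averaged). Both were high in the ALK-negative FE-PD as in the other 3 lines. SRGN, the proteoglycan that packs granules, read 10.56, 11.26, 10.17 and 10.76 in ALCL and 6.00, 7.95, 7.63 and 7.07 in the T-cell lines (3.53 ± 0.42, adjusted p = 0.00248, 0.0105 averaged). STX11, needed for granule release, differed by 2.41 ± 0.37 (adjusted p = 0.00765, 0.0292 averaged). The programme was not whole, since GZMA read 4.89, 8.05, 9.76 and 11.39 in ALCL and 9.97, 8.12, 5.49 and 5.28 in the T-cell lines and overlapped between groups (adjusted p = 0.624, 0.844 averaged), and GNLY read 6.42, 6.56, 6.13 and 6.57 in ALCL and 6.11, 6.11, 6.02 and 6.01 in the T-cell lines, low in all 8 lines (adjusted p = 0.106, 0.237 averaged).

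Cytokine receptors formed the next group. Of these 12 of 37 measured members were higher in ALCL (8 averaged, 8 to 12 with any 1 line left out) and 1 was lower (0 without Molt-3), with a median of 0.60. IL2RA, the alpha chain of the interleukin-2 receptor (CD25), read 11.85, 10.39, 11.05 and 11.54 in ALCL and 6.73, 5.92, 6.29 and 6.75 in the T-cell lines and differed by 4.78 ± 0.33 (adjusted p = 0.000163, 0.00117 averaged). IL2RB, its beta chain, read 12.44, 11.65, 12.08 and 13.40 in ALCL and 7.93, 7.91, 7.65 and 8.08 in the T-cell lines (4.50 ± 0.34, adjusted p = 0.000265, 0.00189 averaged). IL2RG, the shared gamma chain, behaved otherwise, with 10.87, 7.08, 7.24 and 10.39 in ALCL and 11.65, 11.15, 11.36 and 11.83 in the T-cell lines. It was low in JB6 and SU-DHL-1 and just below the T-cell range in FE-PD and Karpas 299, and was not called (adjusted p = 0.11, 0.222 averaged). Chains of the interleukin-1 system were higher together. The decoy receptor IL1R2 read 10.79, 11.32, 11.51 and 10.78 in ALCL and 5.83, 6.09, 6.06 and 5.91 in the T-cell lines (5.13 ± 0.19, adjusted p = 1.33e-05, 0.000194 averaged). The signalling receptor IL1R1 read 9.79, 9.07, 8.50 and 9.27 in ALCL and 4.60, 4.52, 4.36 and 4.72 in the T-cell lines (4.61 ± 0.25, adjusted p = 3.6e-05, 0.000394 averaged), and IL1RAP, their partner, differed by 2.07 ± 0.17 (adjusted p = 0.000448, 0.00325 averaged). In all 3 the 4 ALCL lines lay above the 4 T-cell lines. CSF1R, a receptor kinase of macrophages, read 9.81, 9.17, 8.54 and 8.98 in ALCL and 6.82, 6.30, 6.84 and 6.98 in the T-cell lines (2.39 ± 0.27, adjusted p = 0.00197, 0.00859 averaged). With its probe set of highest spread, IL1RAP was no longer called (adjusted p = 0.0516).

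Downstream of these receptors, 4 of 24 measured members were higher in ALCL (3 averaged, 3 to 6 with any 1 line left out) and 0 were lower (3 at an unadjusted p below 0.05). SOCS1, a feedback inhibitor of JAK kinases, read 10.07, 9.01, 9.90 and 10.72 in ALCL and 6.53, 5.65, 6.37 and 6.04 in the T-cell lines and differed by 3.78 ± 0.36 (adjusted p = 0.00081, 0.00462 averaged). SOCS3, the inhibitor induced by STAT3, read 9.82, 9.07, 9.72 and 8.62 in ALCL and 7.10, 7.19, 7.15 and 7.03 in the T-cell lines (2.19 ± 0.26, adjusted p = 0.00227, 0.0115 averaged), and PIM1, a STAT-induced kinase, differed by 1.79 ± 0.24 (adjusted p = 0.00453, 0.0189 averaged). STAT3 itself read 10.01, 9.91, 11.56 and 10.75 in ALCL and 8.62, 9.82, 10.02 and 10.24 in the T-cell lines, overlapping between groups, and was not called (0.88 ± 0.46, adjusted p = 0.272, 0.324 averaged). Cytokines had 3 higher (1 averaged, 1 to 3 with any 1 line left out, 1 without JB6, CCRF-CEM, Jurkat, Molt-3 or Molt-4) and 0 lower (1 at an unadjusted p below 0.05) of 31 measured members. IL22 was high in FE-PD and Karpas 299 and low in the other 6 lines, at 12.46, 7.10, 6.87 and 10.65 in ALCL and 7.04, 6.64, 7.02 and 7.09 in the T-cell lines, and was not called (adjusted p = 0.263, 0.395 averaged).

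In the TNF receptor family, to which CD30 belongs, 6 of 26 measured members were higher in ALCL (3 averaged, 3 to 6 with any 1 line left out, 3 without Jurkat, Molt-3 or Molt-4) and 1 was lower (0 averaged, 0 without CCRF-CEM, Jurkat, Molt-3 or Molt-4, 0 with spike centring). TNFRSF10B, a death receptor for TRAIL, differed by 1.93 ± 0.35 (adjusted p = 0.0149, 0.045 averaged) and TNFRSF12A, the TWEAK receptor, by 0.99 ± 0.14 (adjusted p = 0.00569, 0.0252 averaged). CFLAR, which blocks the caspase that such receptors activate, read 9.64, 9.22, 9.57 and 10.64 in ALCL and 7.56, 7.93, 7.54 and 7.55 in the T-cell lines (2.12 ± 0.28, adjusted p = 0.00417, 0.0195 averaged). The NF-kB list had 3 higher (0 averaged, 0 to 3 with any 1 line left out, 0 without Karpas 299, Jurkat, Molt-3 or Molt-4, 1 without CCRF-CEM) and 0 lower (2 at an unadjusted p below 0.05) of 21 measured members. Chemokines and their receptors had 2 higher (0 averaged, 0 to 3 with any 1 line left out, 0 without Molt-3 or Molt-4, 4 with spike centring) and 0 lower (2 at an unadjusted p below 0.05, 2 with spike centring) of 31 measured members. CXCR4, the receptor that keeps lymphocytes in marrow, read 11.83, 7.11, 6.86 and 10.13 in ALCL and 11.42, 12.55, 11.95 and 11.87 in the T-cell lines and was not called (adjusted p = 0.127, 0.239 averaged). CCR7, the lymph node homing receptor, read 11.55, 8.05, 6.15 and 10.99 in ALCL and 7.92, 5.96, 5.78 and 5.94 in the T-cell lines and was not called (adjusted p = 0.188, 0.344 averaged). In both, FE-PD and Karpas 299 were high and JB6 and SU-DHL-1 low, an order seen in IL22, IL2RG and ARHGDIB too. These 5 genes were picked for it after their values were seen.

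Proteins of adhesion, membrane and cell shape differed in both directions. Integrins and adhesion molecules had 5 higher (2 averaged, 2 to 6 with any 1 line left out, 2 without Molt-3 or Molt-4, 3 without JB6, Karpas 299 or Jurkat) and 3 lower (2 averaged, 2 to 3 with any 1 line left out) of 34 measured members. ITGB2, the beta chain of leukocyte integrins, read 5.85, 5.21, 6.44 and 6.83 in ALCL and 9.80, 9.01, 9.30 and 9.22 in the T-cell lines and was lower (-3.25 ± 0.35, adjusted p = 0.00143, 0.00779 averaged). ITGA3, a laminin-binding chain, was higher (1.68 ± 0.26, adjusted p = 0.00833, 0.0307 averaged), and so was ICAM1, a ligand of ITGB2 integrins (1.32 ± 0.23, adjusted p = 0.0124, 0.0458 averaged). Actin-related genes had 4 higher (2 averaged, 2 to 5 with any 1 line left out, 2 without FE-PD, Molt-3 or Molt-4, 8 with spike centring) and 2 lower (1 averaged, 1 to 3 with any 1 line left out, 1 without JB6, SU-DHL-1, CCRF-CEM, Jurkat, Molt-3 or Molt-4) of 35 measured members. ACTN4, an actin crosslinker, differed by 1.95 ± 0.29 (adjusted p = 0.00673, 0.0263 averaged), CTTN, cortactin, by 1.60 ± 0.18 (adjusted p = 0.00204, 0.00873 averaged), and RHOH, a blood-cell GTPase needed for T-cell receptor signalling, by -2.52 ± 0.31 (adjusted p = 0.00293, 0.0145 averaged). ARHGDIB read 10.68, 7.06, 6.69 and 11.28 in ALCL and 12.51, 12.51, 12.52 and 12.50 in the T-cell lines. The T-cell lines lay between 12.50 and 12.52, FE-PD and Karpas 299 more than 1 log2 unit below them and JB6 and SU-DHL-1 more than 5, and it was not called (adjusted p = 0.0697, 0.156 averaged).

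Calcium-binding proteins beneath the membrane were higher in several members. In the annexin and S100 list 5 of 21 measured members were higher in ALCL (4 averaged, 4 to 6 with any 1 line left out) and 0 were lower (0 at an unadjusted p below 0.05). S100A11 read 10.73, 10.86, 10.61 and 11.80 in ALCL and 8.87, 5.34, 6.38 and 6.16 in the T-cell lines (4.31 ± 0.70, adjusted p = 0.00915, 0.0361 averaged), and S100A10, the partner of annexin A2, read 13.01, 12.89, 11.95 and 13.22 in ALCL and 10.08, 10.47, 9.76 and 8.94 in the T-cell lines (2.96 ± 0.38, adjusted p = 0.0034, 0.0109 averaged). ANXA2 differed by 2.84 ± 0.49 (adjusted p = 0.0119, 0.0344 averaged) and S100A6 by 3.68 ± 0.59 (adjusted p = 0.00857, 0.0341 averaged). Besides LGALS1, LGALS8 was the other galectin called, at 1.87 ± 0.28 (adjusted p = 0.00697, 0.0263 averaged).

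Protease inhibitors had 6 higher (3 averaged, 3 to 5 with any 1 line left out, 3 without CCRF-CEM, Molt-3 or Molt-4) and 2 lower (2 averaged, 2 to 3 with any 1 line left out) of 24 measured members. SERPINB1, an inhibitor of granule proteases, read 12.74, 9.75, 11.66 and 10.84 in ALCL and 8.12, 6.09, 5.94 and 5.96 in the T-cell lines (4.72 ± 0.71, adjusted p = 0.00696, 0.0279 averaged). SPINT2, an inhibitor of membrane proteases, was lower at 6.79, 7.18, 6.48 and 6.37 in ALCL and 9.26, 9.45, 8.87 and 9.03 in the T-cell lines (-2.45 ± 0.21, adjusted p = 0.000467, 0.00248 averaged), and SERPINE2 differed by -1.75 ± 0.21 (adjusted p = 0.00269, 0.00536 averaged). Lysosomal enzymes had 5 higher (3 averaged, 3 to 6 with any 1 line left out, 3 without Molt-3 or Molt-4) and 2 lower (1 averaged, 1 to 2 with any 1 line left out, 1 without FE-PD, Karpas 299, Jurkat, Molt-3 or Molt-4, 1 with spike centring) of 27 measured members. CTSB, cathepsin B, read 10.43, 10.71, 11.66 and 11.59 in ALCL and 7.60, 8.57, 7.87 and 7.66 in the T-cell lines (3.17 ± 0.34, adjusted p = 0.00141, 0.00784 averaged), while PSAP, the precursor of the saposins, read 9.56, 10.24, 9.81 and 10.24 in ALCL and 11.82, 11.37, 12.13 and 12.21 in the T-cell lines and was lower (-1.92 ± 0.23, adjusted p = 0.00251, 0.0117 averaged).

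MHC class II molecules present antigen to helper T cells and are made by activated human T cells. Of 12 measured members 0 were called by limma (8 higher at an unadjusted p below 0.05, 9 called with spike centring), with a median difference of 3.10. HLA-DRA, the alpha chain of HLA-DR, read 11.67, 11.36, 5.76 and 13 in ALCL and 5.97, 5.52, 5.63 and 5.84 in the T-cell lines. CD74, the invariant chain, read 13.19, 12.56, 6.37 and 13.94 in ALCL and 6.39, 6.26, 6.29 and 6.58 in the T-cell lines. In both, FE-PD, JB6 and Karpas 299 were high and SU-DHL-1 was at the level of the T-cell lines. HLA-DPA1 (12.12, 11.69, 6.38 and 13.18 in ALCL and 6.03, 5.82, 5.42 and 5.73 in the T-cell lines) and HLA-DPB1 (10.50, 12.44, 6.62 and 11.65 in ALCL and 6.55, 6.49, 6.43 and 6.49 in the T-cell lines) showed the same order. Adjusted p values for the 4 genes were 0.0743, 0.073, 0.0505 and 0.0728 (0.163, 0.16, 0.124 and 0.161 averaged), and with SU-DHL-1 left out 8 of the 12 were called. CIITA, the master activator of these genes, has 3 probe sets, none of them called. The 1 used here for the gene read 7.61, 7.36, 7.55 and 7.60 in ALCL and 7.51, 7.33, 7.41 and 7.59 in the T-cell lines (adjusted p = 0.695, 0.72 averaged). Another read 5.07, 5.09, 4.58 and 5.74 in ALCL and 4.55, 4.44, 4.56 and 4.50 in the T-cell lines, with SU-DHL-1 next to the T-cell lines and the other 3 ALCL lines above it (a difference of 0.61, adjusted p = 0.136 with each probe set tested by itself).

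MHC class I genes had 4 higher (1 averaged, 1 to 7 with any 1 line left out, 1 without FE-PD, Jurkat, Molt-3 or Molt-4, 2 without JB6, Karpas 299 or CCRF-CEM, 7 without SU-DHL-1) and 1 lower (0 averaged, 0 to 1 with any 1 line left out, 0 without FE-PD, JB6, SU-DHL-1, Karpas 299, Molt-3 or Molt-4, 0 with spike centring) of 16 measured members. HLA-E, a ligand of natural killer receptors, read 11.34, 10.79, 10.64 and 11.58 in ALCL and 9.13, 9.27, 9.80 and 9.63 in the T-cell lines (1.63 ± 0.25, adjusted p = 0.00692, 0.0195 averaged). B2M, the light chain of all class I molecules, read 13.28, 13.02, 12.28 and 13.45 in ALCL and 12.09, 12.24, 12.67 and 12.75 in the T-cell lines and was not called (adjusted p = 0.236, 0.292 averaged). Class I genes are near-identical to each other, so their probe sets may share signal. Interferon-stimulated genes had 8 higher (4 averaged, 3 to 8 with any 1 line left out, 3 without Karpas 299, 4 without JB6, Jurkat, Molt-3 or Molt-4, 5 without FE-PD) and 1 lower (1 averaged, 1 to 2 with any 1 line left out, 2 without CCRF-CEM or Jurkat, 0 with spike centring) of 32 measured members. GBP2, a GTPase induced by interferon gamma, read 8.40, 8.25, 8.84 and 8.99 in ALCL and 5.86, 5.80, 5.89 and 5.80 in the T-cell lines (2.78 ± 0.17, adjusted p = 8.19e-05, 0.000835 averaged), and OAS3, an antiviral enzyme, was lower at 7.14, 6.20, 6.75 and 7.32 in ALCL and 8.30, 8.18, 8.25 and 8.22 in the T-cell lines (-1.39 ± 0.23, adjusted p = 0.00996, 0.0371 averaged). With spike centring, OAS3 was no longer called (adjusted p = 0.196).

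Metabolic genes differed in opposite directions in 2 pathways. For glycolysis and hypoxia, 9 of 34 measured members were higher in ALCL (3 averaged, 3 to 12 with any 1 line left out, 3 without Molt-3 or Molt-4, 5 without CCRF-CEM) and 0 were lower (1 at an unadjusted p below 0.05), with a median of 0.58. SLC2A3, a glucose transporter, read 10.91, 9.67, 10.14 and 10.29 in ALCL and 7.37, 7.19, 6.92 and 7.02 in the T-cell lines and differed by 3.12 ± 0.25 (adjusted p = 0.000335, 0.00259 averaged). PFKFB3, which makes the activator of phosphofructokinase, read 8.87, 9.57, 10.11 and 9.46 in ALCL and 6.83, 6.70, 6.10 and 6.08 in the T-cell lines (3.07 ± 0.29, adjusted p = 0.00081, 0.00456 averaged). PKM, pyruvate kinase, differed by 1.41 ± 0.23 (adjusted p = 0.00909, 0.0293 averaged). For cholesterol and fatty acid synthesis, 7 of 23 measured members were lower in ALCL (6 averaged, 5 to 8 with any 1 line left out, 2 with spike centring) and 0 were higher (0 at an unadjusted p below 0.05), with a median of -0.54. SQLE, squalene epoxidase, read 8.0, 7.68, 7.34 and 7.70 in ALCL and 9.39, 8.83, 9.26 and 9.01 in the T-cell lines (-1.44 ± 0.18, adjusted p = 0.00276, 0.0122 averaged). HMGCS1, at the start of the pathway, read 8.21, 7.89, 7.38 and 7.92 in ALCL and 9.81, 9.03, 9.98 and 8.92 in the T-cell lines (-1.59 ± 0.28, adjusted p = 0.0139, 0.0195 averaged). IDI1 differed by -1.44 ± 0.22 (adjusted p = 0.00768, 0.0195 averaged) and DHCR7, at the end of the pathway, by -0.78 ± 0.12 (adjusted p = 0.00833, 0.0195 averaged). Ribosomal proteins served as a background list, with 0 of 49 called (5 at an unadjusted p below 0.05) and a median of 0.06. With spike centring, SQLE, HMGCS1, IDI1 and DHCR7 were no longer called (adjusted p between 0.0702 and 0.664).

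Genes of cell division were lower in part. In the mitotic list 4 of 36 measured members were lower in ALCL (2 averaged, 2 to 8 with any 1 line left out, 2 without Molt-3 or Molt-4, 8 without JB6, 0 with spike centring) and 0 were higher (0 at an unadjusted p below 0.05), with a median of -0.71. In the replication list 5 of 38 measured members were lower in ALCL (4 averaged, 3 to 9 with any 1 line left out, 3 without Molt-4, 9 without SU-DHL-1, 1 with spike centring) and 1 was higher, with a median of -0.31 (0.03 with spike centring). FOXM1, a factor of mitotic genes, differed by -0.99 ± 0.14 (adjusted p = 0.00613, 0.0216 averaged), CDC25B, a phosphatase that opens mitosis, by -1.55 ± 0.26 (adjusted p = 0.0105, 0.0413 averaged), and GINS1, part of the replicative helicase, by -1.02 ± 0.14 (adjusted p = 0.00445, 0.0126 averaged). TK1, thymidine kinase of dividing cells, went the other way, with 8.79, 8.80, 8.73 and 8.92 in ALCL and 8.18, 7.62, 7.75 and 7.43 in the T-cell lines (1.06 ± 0.16, adjusted p = 0.00684, 0.0228 averaged). MYC read 10.47, 10.24, 10.62 and 9.04 in ALCL and 10.67, 10.42, 10.76 and 11.06 in the T-cell lines, lowest in Karpas 299, and was not called (adjusted p = 0.282, 0.456 averaged). RB1, the retinoblastoma protein, read 5.88, 7.26, 6.93 and 7.66 in ALCL and 8.67, 8.96, 9.34 and 9.13 in the T-cell lines, lowest in FE-PD, and was lower (-2.09 ± 0.36, adjusted p = 0.0113, 0.043 averaged). CDKN2A, which encodes p16 and ARF, read 7.28, 9.82, 9.52 and 9.50 in ALCL and 6.73, 6.66, 6.79 and 6.85 in the T-cell lines. It was high in JB6, SU-DHL-1 and Karpas 299, and FE-PD was close to the T-cell lines (2.27 ± 0.51, adjusted p = 0.0321, 0.0862 averaged). The call of CDKN2A was lost without any 1 of JB6, SU-DHL-1, Karpas 299, CCRF-CEM, Jurkat, Molt-3 or Molt-4 (adjusted p between 0.0594 and 0.0883). With spike centring, FOXM1, CDC25B and GINS1 were no longer called (adjusted p between 0.0851 and 0.664). With all 16 arrays in the fit, FOXM1 was no longer called (adjusted p = 0.0546).

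Enzymes of DNA methylation and histone marks had 0 higher (1 at an unadjusted p below 0.05) and 7 lower (2 averaged, 2 to 6 with any 1 line left out, 2 without Molt-3 or Molt-4, 4 without FE-PD, JB6 or Jurkat, 0 with spike centring) of 32 measured members, with a median of -0.33 (0.01 with spike centring). HDAC1, a target of trichostatin A, read 10.33, 9.93, 10.07 and 9.70 in ALCL and 10.95, 11.05, 10.85 and 10.82 in the T-cell lines (-0.91 ± 0.14, adjusted p = 0.00833, 0.0277 averaged). DNMT1, the maintenance methyltransferase, read 9.15, 8.93, 9.45 and 9.14 in ALCL and 9.65, 9.37, 9.64 and 9.42 in the T-cell lines and was not called (adjusted p = 0.151, 0.268 averaged). DNMT3B, a de novo methyltransferase, differed by -1.10 ± 0.21 (adjusted p = 0.0179, 0.0616 averaged), and TET1, which oxidises methylcytosine, by -0.77 ± 0.10 (adjusted p = 0.00405, 0.0189 averaged) from levels that were low in all lines. DCK, the kinase that activates 5-aza-2'-deoxycytidine, read 6.14, 7.27, 6.52 and 6.82 in ALCL and 7.87, 7.89, 8.42 and 8.20 in the T-cell lines and was lower (-1.41 ± 0.25, adjusted p = 0.0124, 0.0453 averaged). SAMHD1, which removes deoxynucleotides, was higher (0.89 ± 0.16, adjusted p = 0.0139, 0.0426 averaged), and APOBEC3B, a cytidine deaminase acting on DNA, read 9.17, 7.72, 8.53 and 8.80 in ALCL and 6.41, 4.19, 4.47 and 4.41 in the T-cell lines (3.69 ± 0.52, adjusted p = 0.00533, 0.0228 averaged). The call of DNMT3B was lost without Molt-3 (adjusted p = 0.0621) or Molt-4 (adjusted p = 0.0613). With spike centring, HDAC1, DNMT3B, TET1, DCK and SAMHD1 were no longer called (adjusted p between 0.0789 and 0.664).

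Regulators of cell death had 1 higher (1 averaged, 1 to 2 with any 1 line left out, 2 without SU-DHL-1, Karpas 299 or Jurkat, 5 with spike centring) and 2 lower (2 averaged, 2 to 3 with any 1 line left out) of 25 measured members. CASP2, an initiator caspase, read 7.24, 6.66, 6.92 and 6.98 in ALCL and 8.77, 9.25, 9.85 and 9.44 in the T-cell lines (-2.38 ± 0.23, adjusted p = 0.00091, 0.00429 averaged), and BCL2L1, the survival protein BCL-X, differed by -0.95 ± 0.15 (adjusted p = 0.00765, 0.0246 averaged). With spike centring, BCL2L1 was no longer called (adjusted p = 0.664).

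Marker lists of other cell types were read in the same way. B-cell markers had 0 higher (1 at an unadjusted p below 0.05) and 3 lower (1 averaged, 1 to 2 with any 1 line left out, 1 without any line but CCRF-CEM or Jurkat) of 16, among them the pre-B gene IGLL1, which read 4.93, 5.91, 4.74 and 4.86 in ALCL and 10.03, 8.25, 7.53 and 7.66 in the T-cell lines (-3.26 ± 0.55, adjusted p = 0.011, 0.0228 averaged). Myeloid markers had 2 higher (CSF1R and CEBPD, 4 with spike centring) and 1 lower (AIF1) of 22. CEBPD, a factor of myeloid and inflammatory genes, read 6.55, 8.29, 8.64 and 7.52 in ALCL and 5.10, 5.00, 5.03 and 5.04 in the T-cell lines (2.71 ± 0.41, adjusted p = 0.00678, 0.0261 averaged), while LYZ, lysozyme, read 3.81 to 4.02 in all 8 lines. NK-cell markers had 0 called of 12 and endothelial ones 0 of 13 (3 each at an unadjusted p below 0.05). With spike centring 1 NK-cell marker was higher, and 1 endothelial marker was higher and 1 lower. Matrix markers had 1 higher (3 without FE-PD, 2 without SU-DHL-1 or Karpas 299, 6 with spike centring), the fibrillin FBN1 at 9.40, 9.27, 10.92 and 9.04 in ALCL and 6.45, 7.08, 6.98 and 6.80 in the T-cell lines (2.83 ± 0.39, adjusted p = 0.0048, 0.0195 averaged), and 1 lower (0 with spike centring), SPARC (-1.20 ± 0.18, adjusted p = 0.00725, 0.0186 averaged). Epithelial markers had 1 higher of 18 (0 averaged, 0 without any line but FE-PD or SU-DHL-1, 2 without FE-PD) and neuronal ones 1 of 24 (0 averaged, 0 without any line but SU-DHL-1 or Jurkat, 2 with spike centring). The 8 lists had medians between 0.06 and 0.24, and the mean level of a list differed between any 2 of the 8 lines by less than 1 log2 unit. With spike centring, SPARC was no longer called (adjusted p = 0.397).

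**Figure D3:**
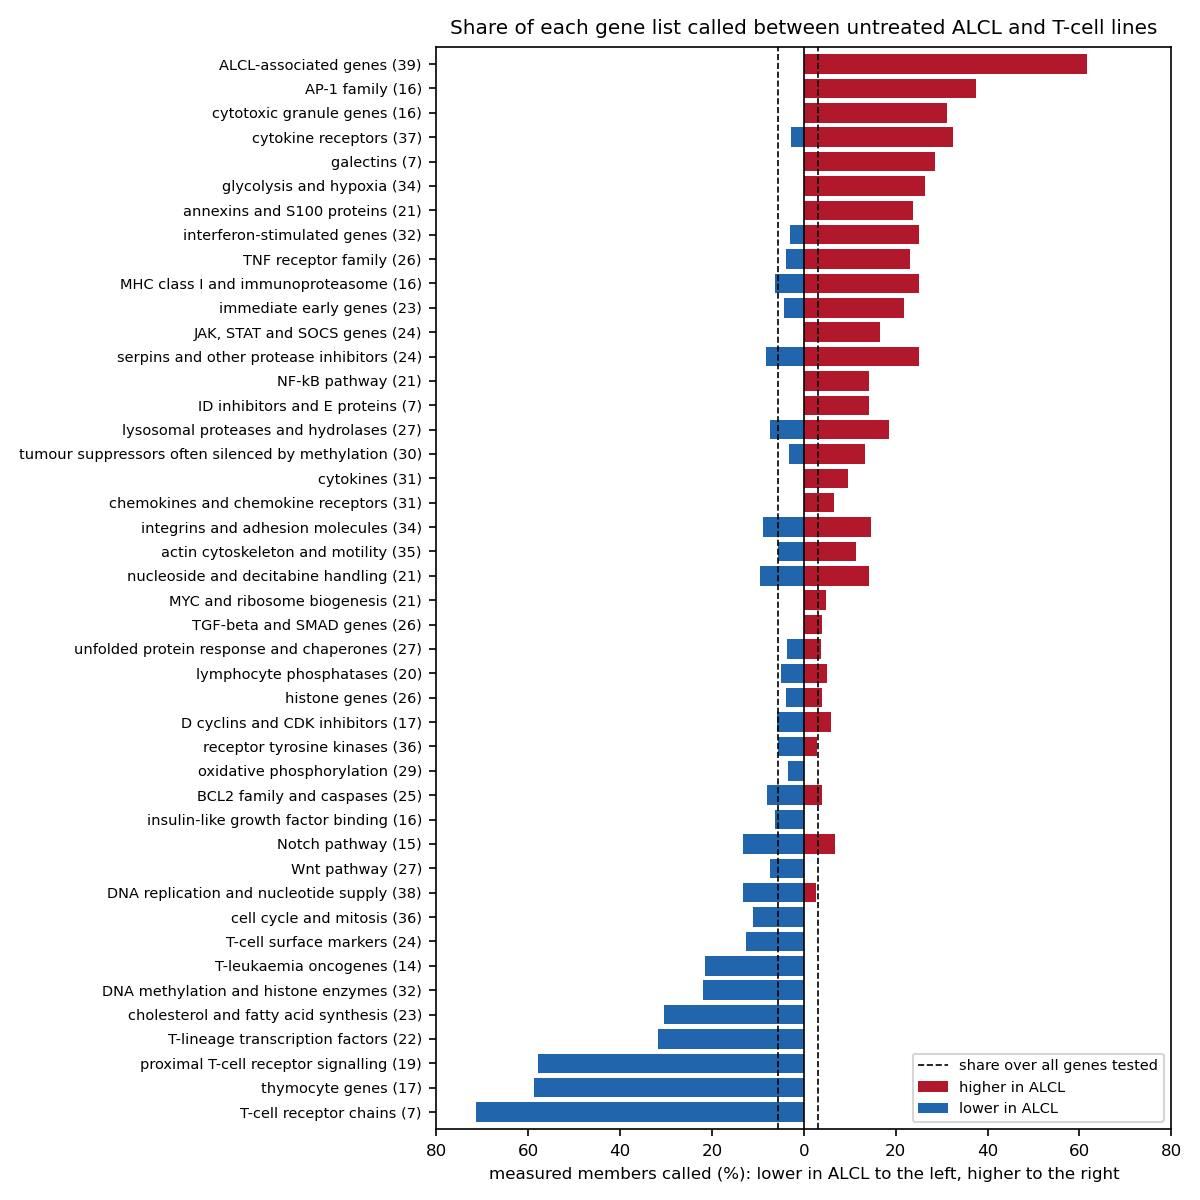
Percent of the measured members of each list (number in brackets) called higher (red, to the right) or lower (blue, to the left) in ALCL, for lists of at least 5 measured members with any call, cell type markers left out. Dashed lines mark the shares over all genes tested, 3.18% higher and 5.58% lower. T-cell receptor chains, thymocyte genes and receptor signalling lie farthest to the left.

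Within each group, the ALCL lines varied more than the T-cell lines. The median SD of a gene over 4 lines was 0.26 in ALCL and 0.18 in the T-cell lines, where Molt-3 and Molt-4 are nearly the same, and 480 and 234 genes had an SD above 1. Genes in which 1 line lay at least 2 log2 units beyond the other 7 numbered 121, and 51 of these belonged to SU-DHL-1. Jurkat had 20, FE-PD and Karpas 299 16 each, CCRF-CEM 12 and JB6 6. Molt-3 and Molt-4 had 0, and with either left out the other had 14 (Molt-4) or 10 (Molt-3). On the treated arrays of the same lines, 104 of the 121 were still the extreme line in the same direction, and in 20 of them the distance was still at least 2 log2 units.

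SU-DHL-1 had the most such genes. It had TM4SF1, a membrane protein of epithelial and endothelial cells, at 11.79 against 5.45 to 5.83 in the other 7 lines. SERPINB4, a squamous-cell serpin, read 9.80 against 3.99 to 4.28, FCER1G, the Fc receptor gamma chain, 11.89 against 6.41 to 6.97, and PLA2G4A, cytosolic phospholipase A2, 9.57 against 3.63 to 3.82. Other genes were low in the same line. GNAS, a G-protein subunit made in nearly every cell, read 6.86 against 12.19 to 13.38. Of its 9 probe sets, 6 read 2.48 to 6.32 log2 units lower in SU-DHL-1 than in any other line, 1 read 0.41 lower, and in the other 2 SU-DHL-1 was not the lowest line. LAPTM5, a lysosomal protein of blood cells, read 6.30 against 10.49 to 11.89, ICAM3, a leukocyte adhesion molecule, 5.21 against 8.79 to 10.84, and CORO1A, an actin regulator of blood cells, 6.67 against 10.01 to 11.60. On its treated array the same line read 12.09 for TM4SF1 and 7.30 for GNAS, and in the other 7 treated lines GNAS lay between 11.48 and 13.03. Its values for TNFRSF8, GZMB and PRF1, given above, lay inside the range of the other 3 ALCL lines, and its ALK value was the highest of the 8. Other genes higher in ALCL, also given above, had SU-DHL-1 outside that range. It was the lowest ALCL line for CLU, IRF4, IL1R1, LGALS1 and CAPN2, and the highest for SERPINA1. Without SU-DHL-1, 1195 genes were called between the groups in place of 1048.

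FE-PD, the line without an ALK fusion, was set beside the 3 ALK-positive lines as a description, since 1 line allows no test. In 28 genes it lay at least 2 log2 units above all 3 and in 38 below. By the same measure within ALCL, SU-DHL-1 had 57 above and 32 below, Karpas 299 22 and 7, and JB6 7 and 4. FE-PD was thus not the only ALCL line to stand apart. Genes among the largest differences of FE-PD, chosen after their values were seen, are given here. G0S2, an inhibitor of lipolysis, read 5.50, 10.72, 11.38 and 10.46 in ALCL and 5.10, 5.03, 5.18 and 5.32 in the T-cell lines. COL6A3, a collagen chain, read 6.06, 10.59, 11.95 and 10.59 in ALCL and 5.85, 5.89, 5.82 and 5.85 in the T-cell lines. NAMPT, which makes NAD, read 6.06, 9.64, 11.31 and 10.37 in ALCL and 7.50, 7.30, 7.74 and 7.83 in the T-cell lines, and CTSL, cathepsin L, read 5.49, 9.61, 10.20 and 9.30 in ALCL and 5.43, 5.34, 5.64 and 5.42 in the T-cell lines. In all 4, FE-PD was near or below the level of the T-cell lines. CCND2, cyclin D2, was the largest in the other direction, with 12.59, 6.40, 6.31 and 6.46 in ALCL and 7.12, 6.63, 7.06 and 9.71 in the T-cell lines. FE-PD also stood above all 7 other lines in the blood group protein XK, at 8.63 against 4.45 to 4.68 and in the gluconeogenic enzyme FBP1, at 9.92 against 6.29 to 7.03. GIMAP6, a GTPase of lymphocytes and also picked by its values, was at T-cell level in FE-PD and low in the other ALCL lines, with 8.38, 4.25, 3.95 and 4.75 in ALCL and 8.24, 8.67, 8.30 and 8.62 in the T-cell lines.

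The other lines had fewer genes of their own. Karpas 299 read 7.40 against 3.92 to 4.36 for RGS1, a regulator of G-protein signalling, and 12.22 against 6.11 to 9.28 for LGALS3, galectin-3. JB6 read 10.91 against 5.74 to 6.60 for S100A2 and, at the low end, 7.21 against 10.02 to 11.34 for GLUL, glutamine synthetase. Among T-cell lines, CCRF-CEM read 10.29 against 5.49 to 6.81 for NKX2-5, a homeobox factor of the heart, and 6.16 against 9.67 to 10.59 for PSIP1, the chromatin protein LEDGF. Jurkat read 10.08 against 4.61 to 5.35 for MAGEA12, a cancer-testis antigen, and 10.08 against 4.46 to 4.81 for TSPYL5.

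**Figure D4:**
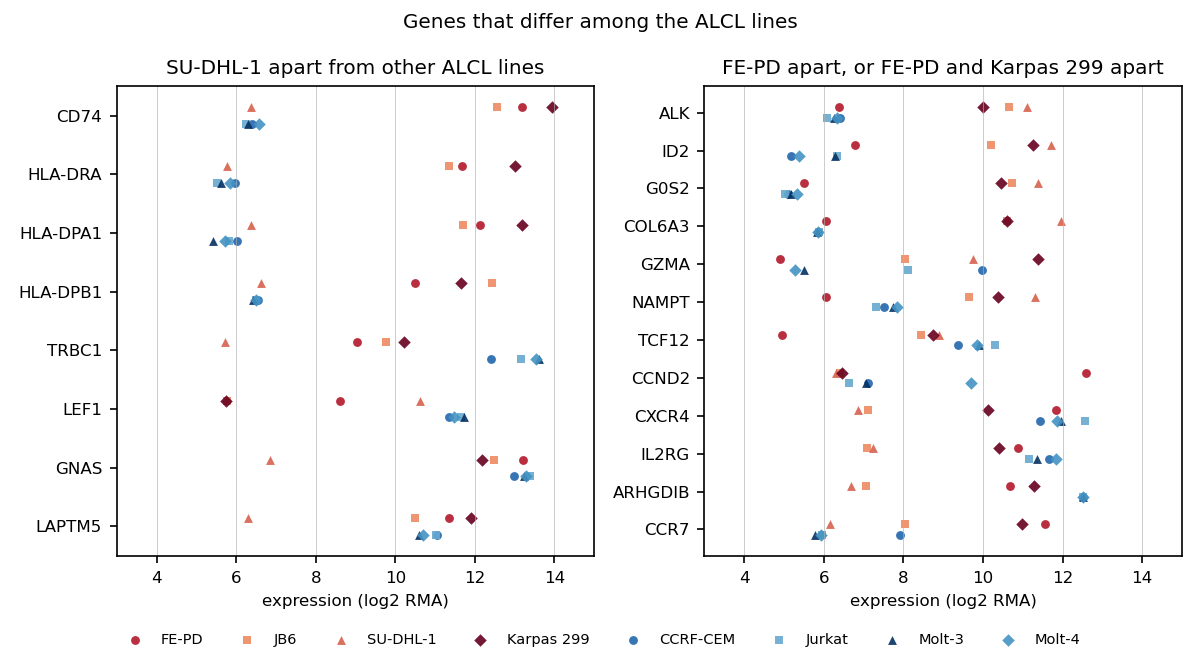
Expression (log2 RMA) of genes in which ALCL lines differ from each other, 1 point for each line, ALCL in red shades and T-cell lines in blue shades. At left, SU-DHL-1 (light red triangles) lies with the T-cell lines for MHC class II genes. At right, FE-PD (circles) lies with the T-cell lines for ALK, G0S2 and COL6A3, and FE-PD and Karpas 299 lie together for CXCR4, IL2RG, ARHGDIB and CCR7.

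Position was read from the order of 11931 genes in a RefSeq gene table, with no coordinates taken from the arrays. There were 13 runs (44 genes) of 3 or more measured neighbours called in the same direction, 2 higher and 11 lower, and 3 of that length with the Molt lines averaged (6 without FE-PD or Jurkat, 5 without JB6, and 3 without Karpas 299, Molt-3 or Molt-4). They include the CD3 genes CD3E, CD3D and CD3G on chromosome 11, and CD1D, CD1A, CD1B, CD1C and CD1E on chromosome 1, related genes whose probe sets may share signal. LCK and HDAC1 stood with MARCKSL1 in a run on chromosome 1. The higher runs were HOOK2, JUNB and PRDX2 on chromosome 19 and AUH, NFIL3 and ROR2 on chromosome 9. With the Molt lines averaged, the CD3 run, the LCK run and a run on chromosome 13 were left. The CD1 run then lost CD1B, CD1C and CD1E, and both higher runs were broken, by HOOK2 (adjusted p = 0.118 averaged) and PRDX2 (0.0905 averaged) and by NFIL3 (0.0722 averaged). With spike centring, the CD3 run, the CD1 run and the run with AUH kept all their genes, and every other run lost at least 1. The LCK run lost HDAC1 and the run with JUNB lost HOOK2. The chromosome 13 run that averaging had left kept 1 of its 3 genes. By chromosome, the share of genes called lower was 14.2% on chromosome 20 (47 of 331), 12.1% on chromosome 13 (26 of 214) and 11.04% on chromosome 4 (50 of 453), against 5.58% over all genes. With the Molt lines averaged these shares were 6.95%, 5.61% and 3.97%, against 2.37%, and with spike centring 2.11%, 2.34% and 2.65%, against 1.58%. Genes called higher had their highest share on chromosome 18 (6.90%, 12 of 174, against 3.18%). Copy number was not measured here.

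Several probe sets read 439 of the called genes, and in 160 of these every probe set was called in the same direction. Among named genes called in only some probe sets, CFLAR had 2 of 11 higher (differences from 0.09 to 2.12). LGALS8 had 2 of 6 higher (0.06 to 2.41) and CTTN 1 of 4 (0.14 to 1.60). CAPN2 had 1 of 2 higher (0.19 to 3.72) and CEBPD 1 of 2 (0.11 to 2.71). SERPINA1 had 2 of 3 higher (0.01 to 6.98) and IRF4 2 of 3 (0.04 to 4.86). In NFATC1 1 of 5 was lower (-1.18 to 0.44). These genes are examples, and other named genes were also called in only some of their probe sets. LPCAT3, named for this alone, was the 1 gene with probe sets called in opposite directions, with differences of -0.56 and 1.01.

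The same difference between cell types was then read on the 8 arrays of treated cells, which are other arrays of the same lines and no untreated replicate. There 345 genes were called (2.88%), 162 higher (1.35%) and 183 lower (1.53%). Of the 380 genes higher untreated, 96 were also higher there, and of the 668 lower ones, 91 were also lower, with 0 called in the opposite direction. The median difference of the higher genes was 1.41 untreated and 0.83 treated, and that of the lower genes -1.02 and -0.56. GZMB differed by 6.52 ± 0.42 untreated and by 6.85 ± 0.24 treated (adjusted p = 3.3e-06), and SERPINA1 by 6.26 ± 0.33 and 6.71 ± 0.38 (adjusted p = 7.14e-05). IGFBP2 differed by -4.15 ± 0.37 treated (adjusted p = 0.000841). TRAT1 differed by -4.13 ± 0.20 untreated and by -0.39 ± 0.24 treated, and ADA by -4.24 ± 0.39 and -0.44 ± 0.30, neither called on the treated arrays (adjusted p = 0.498 and 0.574). The change of these differences with treatment was not tested here.

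**Figure D5:**
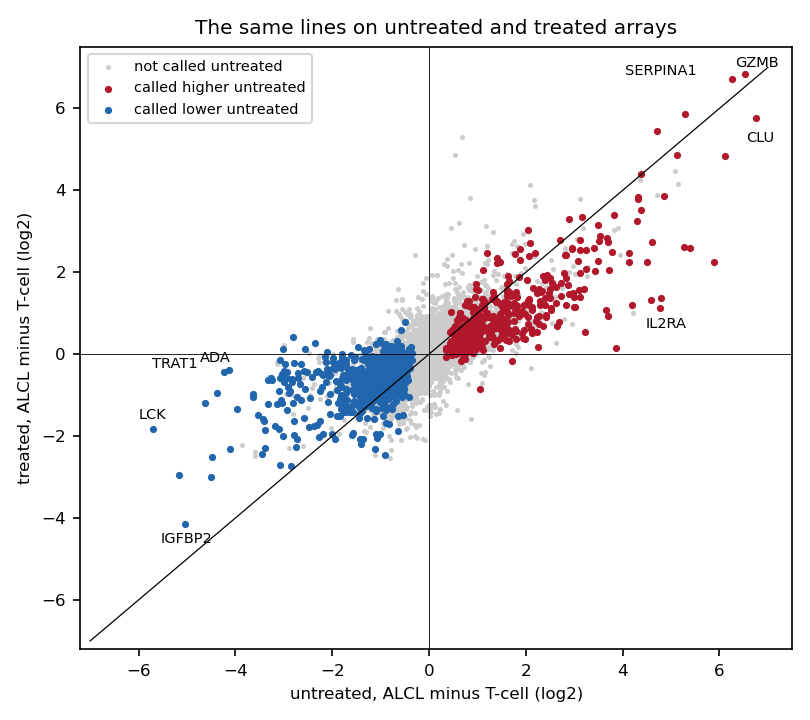
Difference between ALCL and T-cell lines (log2) on treated arrays against that on untreated arrays, 1 point for each gene, with called genes of the untreated comparison in red (higher) and blue (lower) and the line of equal differences in black. GZMB and SERPINA1 lie near the line, and LCK, ADA and TRAT1 lie nearer to 0 on the treated arrays.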

How the data were processed

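RNA of 8 human cell lines, untreated and treated, was read on Affymetrix human gene expression arrays. The deposited values are log2 RMA expression summaries made by the authors with R 2.10.1, per the submitters' processing notes, with background and scaling settings not given in the sources used here. Of 22283 probe sets, 68 controls were set aside, 19065 had 1 gene symbol in the platform annotation, 1043 had several and 2107 had none. Probe sets with several symbols or none were left unnamed and did not enter the genes tested. Where a gene had several probe sets, the one brightest on average across all 16 arrays was kept, which left 11963 genes.

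Groups were compared with lmFit and eBayes in limma 3.58.1 (R 4.3.3) on the 8 untreated arrays without covariates, with Benjamini-Hochberg adjustment over 11963 genes and a threshold of 0.05. The 8 treated arrays were fitted separately in the same way. The fit was tested on simulated data for this comparison over 11963 genes with 200 changed genes, where it found 60.8% of 2-fold and 87.9% of 4-fold changes with 5.30% false calls. The simulated arrays were all independent of each other, unlike Molt-3 and Molt-4 here. These rates therefore do not cover the effect of that pair on the calls. The number of arrays limits precision.

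Genes named were the 12 widest gaps in each direction, up to 6 called members of a list with the smallest p, members that define a list, up to 4 line-specific genes of a line, a short set of known genes and the runs of neighbours, plus those said to be picked by their values. The members and lists were chosen with earlier results of these data known. Alternatives covered the choice of probe set, a filter on low genes, the scaling, the variance model, array weights, all 16 arrays, the Molt lines averaged, stricter thresholds and each line left out. Line order gives replicate numbers no meaning. Promoters came from the RefSeq table on GRCh38.p14, and the build behind the array annotation is not given there.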

Additional observations from a re-analysis of the deposited data

Results flagged for a closer look

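In 350 groups of 4 values (the 175 genes named, each in ALCL and in T-cell lines), 35 held a line far from the other 3, which is 10% where chance flags about 1 in 20 groups. Genes picked for standing out in 1 line are among them, so the share is a description. Each value below is the log2 expression of the line that stands apart, with the range of the other 3 lines of its group. In SU-DHL-1, ADA read 6.79 (8.32 to 8.51), FCER1G 11.89 (6.47 to 6.97), GNAS 6.86 (12.19 to 13.21), PLA2G4A 9.57 (3.64 to 3.82), SERPINB4 9.80 (4.03 to 4.19), TM4SF1 11.79 (5.64 to 5.83) and ZAP70 5.17 (7.49 to 7.69). In FE-PD, CCND2 read 12.59 (6.31 to 6.46), CDKN2A 7.28 (9.50 to 9.82), G0S2 5.50 (10.46 to 11.38), NFATC3 7.90 (8.09 to 8.12), RASGRP1 5.77 (4.68 to 4.82), TCF12 4.94 (8.45 to 8.90) and XK 8.63 (4.50 to 4.68). In JB6, FOXM1 read 8.77 (8.40 to 8.46), IGLL1 5.91 (4.74 to 4.93) and S100A2 10.91 (5.98 to 6.60), and in Karpas 299, RGS1 read 7.40 (3.92 to 4.31).

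Among the T-cell lines, CCRF-CEM stood apart most often, with APOBEC3B at 6.41 (4.19 to 4.47), CCR7 at 7.92 (5.78 to 5.96), CD247 at 9.92 (10.72 to 10.81), CDC25B at 10.31 (10.91 to 10.99), CYTIP at 5.75 (4.75 to 4.90), MARCKSL1 at 11.66 (11.90 to 11.92), PSIP1 at 6.16 (9.67 to 10.05), SERPINB1 at 8.12 (5.94 to 6.09) and TIMP1 at 8.24 (6.73 to 6.82). Jurkat read 12.70 for CD3D (12.81 to 12.83), 7.93 for CFLAR (7.54 to 7.56), 6.64 for IL22 (7.02 to 7.09), 10.08 for MAGEA12 (4.90 to 5.35), 6.50 for SAMHD1 (6.79 to 6.84) and 10.08 for TSPYL5 (4.59 to 4.73). Molt-3 read 3.67 for IL26 (3.85 to 3.88) and Molt-4 read 9.71 for CCND2 (6.63 to 7.12).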

How the results depend on the processing

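The count of genes called between the untreated groups (1048, of which 380 higher and 668 lower) moved to 1913 with array weights (745 and 1168), to 472 with the Molt lines averaged (189 and 283), to 334 at an adjusted p below 0.01 (153 and 181) and to 599 at 2-fold or more (255 and 344). The array weights were 3.89 for Molt-3, 3.85 for Molt-4 and 0.49 to 0.92 for the other lines. The pair that may be 1 source thus weighed most in the fit that gave 1913 genes. Centring on the hybridisation spikes gave 188 lower genes and changed the sign of the median of 9 of 56 lists, as given beside those described. With 1 line left out the count ran from 455 to 1195 (476 without Molt-4), higher genes from 187 to 465 and lower genes from 266 to 730 (431 without Karpas 299, 289 without Molt-4), separated genes from 2347 to 3226, line-specific genes from 94 to 157, runs of neighbours from 3 to 13 (6 without FE-PD or Jurkat, 5 without JB6) and lists with a median above 0 from 38 to 41. Requiring a gap of 1 log2 unit left 185 of 2195 separated genes, requiring 3 log2 units left 43 of 121 line-specific genes, and requiring runs of 4 left 4 of 13. Averaging the Molt lines left 3 runs. The fits with averaged or omitted lines hold fewer samples, and the cause of the other changes was not tested. Of 122 called genes named, 110 were called with every single line left out, and no called one changed sign under any alternative tried. The fit of each probe set by itself was read only at the probe set used for the gene, so its sign could not change. Other probe sets entered this check only through their mean or as the one of highest spread. LPCAT3, given above, has a probe set called in the opposite direction. Leaving out lines for separated genes, line-specific genes and neighbours was chosen after seeing the data. So were averaging and spike centring for neighbours and for shares by chromosome. No paired analysis was possible because each line belongs to 1 cell type. With 4 lines a side, 2-fold differences can be missed, and values near the floor of the arrays may be background.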
